A study of Venturia canescens with 18 samples.

Results

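A group of 45 loci, of 16752 in the deposited count table, had modestly fewer reads in heads of female Venturia canescens courted by a brother than in heads of females courted by an unrelated male or kept alone. The members were chosen by their measured levels. Reads of the 2 technical replicates of each pool of heads were summed, and the sum was expressed as counts per 1000000 counts of the pool (CPM). A member had a mean of at least 5 CPM in isolated females and a mean after unrelated courtship between 0.9 and 1.1 times that of isolated females. Its level in each of the 3 brother pools was at most the lowest of the other 6 pools divided by 1.1, and its brother mean was at least 0.25 times the isolated mean. These values fix the direction of every difference between the brother pools and the rest, so the differences are given as a description and carry no test.

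The females were newly emerged virgins of a stock begun from field-collected wasps and reared on the flour moth Ephestia kuehniella. They were boxed singly with a brother (the incompatible male), with an unrelated male (the compatible male) or with no male (the isolated control) for at most 10 min. Each group held 3 pools of heads with 2 technical replicates each, 18 libraries in all, and every pool comes from different females. The labels give 10 heads per condition without saying whether that is per pool, or whether pools came from separate families or days, so any spread given here is that between these pools, which may be partly technical.

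Venturia canescens is a parasitoid wasp. In sexually reproducing wasps of this species, fertilised eggs normally become females and unfertilised eggs become males. Sex is set by the alleles of a sex-determining locus, and fertilised eggs with matching alleles become diploid males, which are sterile. Matings between sibs bring matching alleles together more often, and females of this species are known to mate less readily with brothers. The comparison of brother with unrelated courtship addresses what the female head registers of that difference.

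The loci carry XLOC identifiers, which the file pairs with no gene name, coordinate or length, and none of them occurs among the 14011 genes of the RefSeq table of the species. The function of the members is therefore not given, the markers of head tissues were not checked, and no sequence is shown. A locus with more CPM than another may be longer rather than more abundant, so levels are compared between pools and not between loci. In bulk heads, fewer cells of a type and less RNA per cell cannot be told apart.

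The 9 pools held 62341897 to 103527471 counts. Brother pool 1 stood apart from the others: edgeR estimated a common biological coefficient of variation of 26.3% from all 9 pools, of 13.7% without brother pool 1, and of 22.8% to 28.8% without any one of the other 8. The scaling factors that edgeR's TMM method gave relative to pool totals were 1.07, 0.932 and 0.953 for brother pools 1, 2 and 3, 1.00 to 1.03 for unrelated pools and 0.976 to 1.03 for isolated pools. The CPM of the rule uses unscaled totals, so against TMM it reads brother pool 1 higher and brother pools 2 and 3 lower.

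Of the 8268 loci with a mean of at least 5 CPM in isolated pools, 4828 had an unrelated mean within the window of 0.9 to 1.1 times the isolated mean. All 3 brother pools lay below all 6 other pools at 8.08% of the 8268. Within the window, 447 loci had all 3 brother pools below all 6 other pools and 67 had all 3 above. The margin of 1.1 left 52 lower loci, and the bound of 0.25 took out 7 of them, at 0.00600 to 0.154 of the isolated mean. The lowest member stood at 0.454, so no locus that met the other terms lay between 0.154 and 0.454. At the margin, the member just inside had a lowest other pool 1.1004 times its highest brother pool, and the locus just outside 1.0995 times. At the lower edge of the window the unrelated mean was 0.907 times the isolated mean just inside and 0.893 times just outside, and 32 loci missed membership by that term alone. At the upper edge it was 1.06 times just inside and 1.18 times just outside, where 1 locus missed by that term alone.

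**Figure D1:**
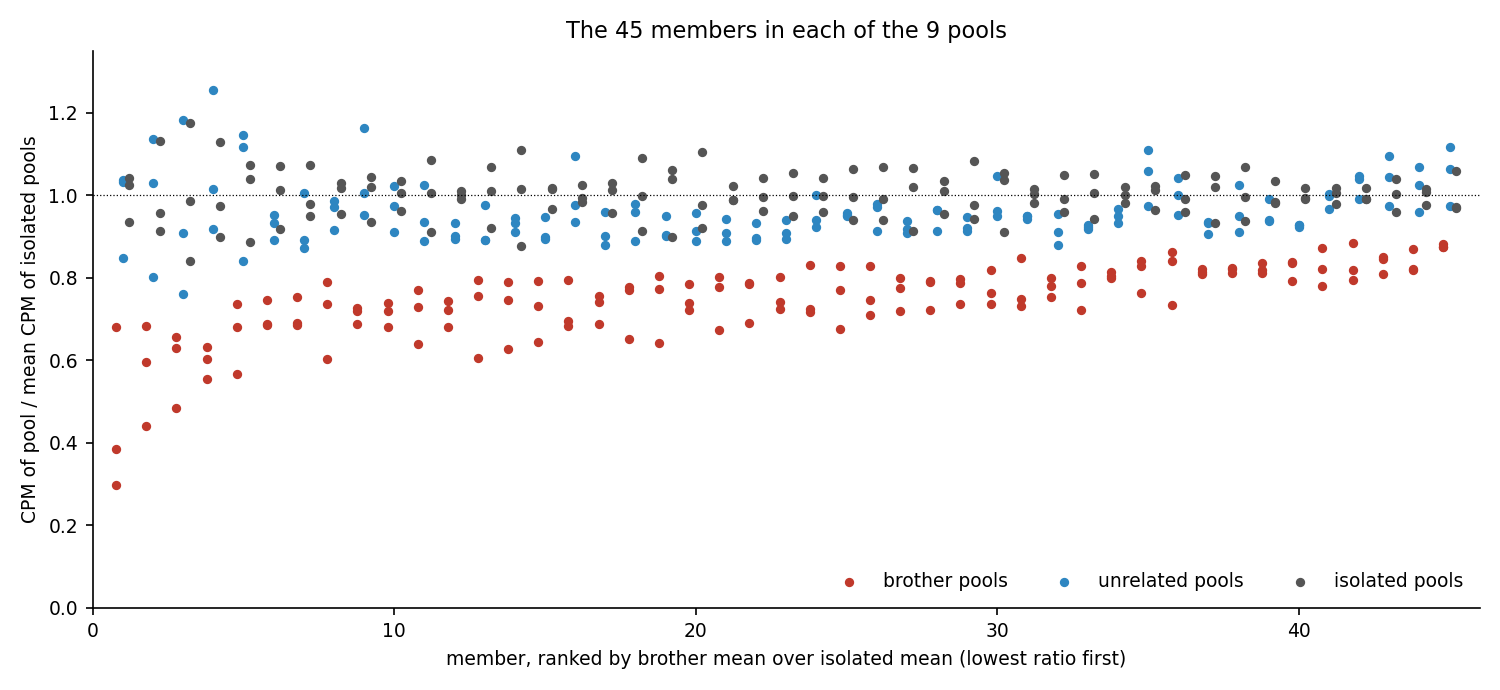
CPM of each member in each of the 9 pools, divided by its mean CPM in the 3 isolated pools (vertical axis), with the 45 members ranked by brother mean over isolated mean (horizontal axis). The brother pools lie below all other pools at every member, as the rule requires, and the ratio of means runs from 0.454 at rank 1 to 0.876 at rank 45.

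Summed over the 45 members, brother pools 1, 2 and 3 held 1494, 1460 and 1461 CPM, against 1809, 1855 and 1824 CPM in unrelated pools and 1969, 1886 and 1925 CPM in isolated pools. The brother pools are alike and low, and the unrelated pools lie above them and below the isolated pools. The complete separation of the unrelated from the isolated pools rests on XLOC_009818, which made up 29.0% to 32.6% of the sum in each pool. Without it, a sum taken after seeing the data, brother pools held 1021, 1024 and 996 CPM, against 1248, 1314 and 1280 CPM in unrelated pools and 1328, 1308 and 1368 CPM in isolated pools, so unrelated pool 2 passes isolated pool 2 and the brother pools stay below the rest. Without that locus the mean was 1281 ± 32.89 CPM over unrelated pools and 1335 ± 30.55 CPM over isolated pools (SD, n = 3 each). The unrelated mean thus stayed below the isolated one. Over all 45 members the mean was 1472 ± 19.0 CPM over the brother pools, 1830 ± 23.0 CPM over the unrelated pools and 1927 ± 41.5 CPM over the isolated pools (SD, n = 3 each). On TMM-scaled totals the sums were less even among brother pools, at 1397, 1566 and 1533 CPM.

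The size of the reduction was narrow for most members. The brother mean lay between 0.7 and 0.85 of the isolated mean at 39 of 45 members, with a median of 0.756. Over all 8268 loci of at least 5 CPM the median of that ratio was 0.988. Against the unrelated mean the members' ratio ran from 0.468 to 0.888, with a median of 0.798. The fitted log2 difference of brother minus isolated pools had a median of -0.38 over the members and 0.03 over all 15486 loci tested by edgeR. Brother minus unrelated, the medians were -0.27 over the members and 0.03 over all loci.

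**Figure D2:**
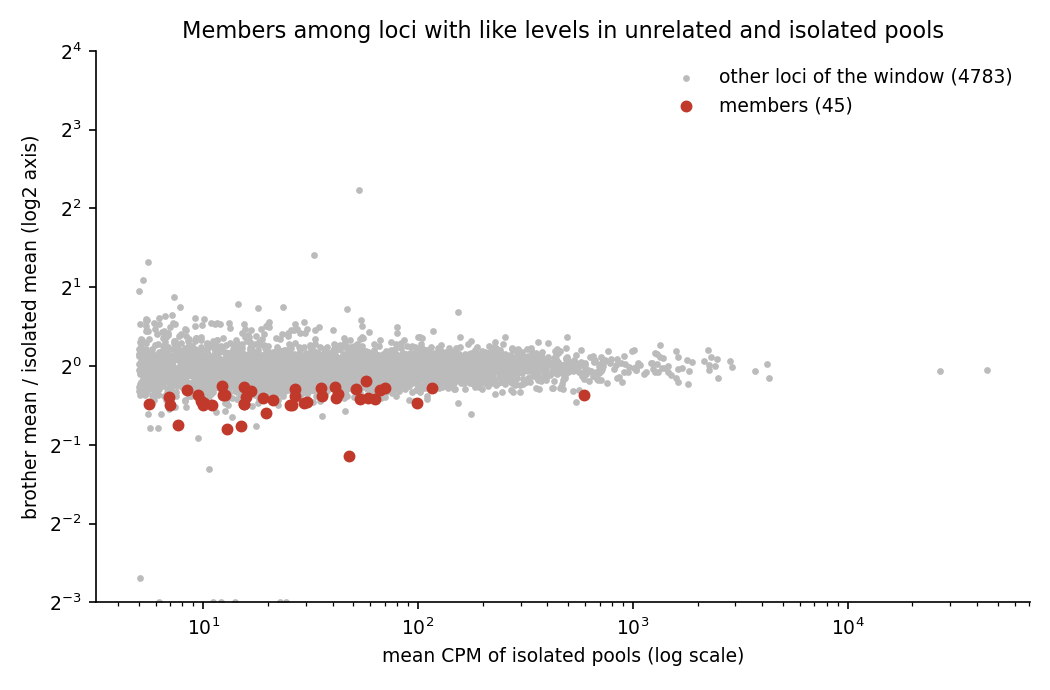
Brother mean divided by isolated mean (vertical axis, log2) against the mean CPM of isolated pools (horizontal axis, log scale) for the 4828 loci of the window, with the 45 members in red. Ratios under 0.125 are drawn at the lower edge. The members lie along the lower rim of the cloud from 5.62 to 592 CPM, and XLOC_009968 stands below the rest at 0.454.

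Members ranged from 5.62 to 592 CPM in isolated pools, with a median of 21.0 CPM, against 41.0 CPM over all loci of at least 5 CPM. Of the 45, 7 lay under 10 CPM, 15 between 10 and 20, 13 between 20 and 50, 8 between 50 and 100, and 2 above 100 CPM. The 4 loci named below are the 2 with the highest isolated CPM and the 2 with the lowest ratio of brother to isolated mean.

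XLOC_009818, the member with the most reads, stood at 472, 435 and 466 CPM in brother pools 1, 2 and 3, at 561, 541 and 544 CPM in unrelated pools and at 641, 577 and 557 CPM in isolated pools. Its brother pools lie together below the rest, and its lowest other value is in unrelated pool 2. The mean was 458 ± 19.7 CPM over the brother pools, 549 ± 11.0 CPM over the unrelated pools and 592 ± 43.7 CPM over the isolated pools (SD, n = 3 each). The fitted log2 difference was -0.35 ± 0.078 for brother minus isolated and -0.21 ± 0.078 for brother minus unrelated (SE).

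XLOC_005177 stood at 95.8, 102 and 91.0 CPM in brother pools, at 113, 117 and 116 CPM in unrelated pools and at 117, 114 and 119 CPM in isolated pools. The unrelated and isolated pools share one range here and the brother pools lie below it by a factor of 1.11 at the nearest. On TMM-scaled totals brother pool 2 came to 109 CPM, against 111 CPM in isolated pool 2, so the gap nearly closes. The fitted log2 difference was -0.25 ± 0.076 for brother minus isolated and -0.21 ± 0.076 for brother minus unrelated (SE).

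XLOC_009968 was the member with the largest reduction. It stood at 32.5, 14.3 and 18.5 CPM in brother pools, at 40.5, 49.6 and 49.4 CPM in unrelated pools and at 49.8, 49.0 and 44.7 CPM in isolated pools. Brother pool 1 is the highest of the brother pools, 2.28 times brother pool 2, and unrelated pool 1 is the lowest of the other 6. The fitted log2 difference of brother minus isolated was -1.14 ± 0.22 (SE) with all pools and -1.07 ± 0.22 for brother minus unrelated, and without brother pool 1 the second was -1.40 ± 0.12.

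XLOC_008058 stood at 7.65, 5.66 and 8.79 CPM in brother pools, at 10.3, 14.6 and 13.2 CPM in unrelated pools and at 11.7, 14.6 and 12.3 CPM in isolated pools. The brother and other pools do not overlap, and the nearest other pool is again unrelated pool 1. Its least-read pool held 389 counts, so counting error matters more here than for the members above. The fitted log2 difference was -0.78 ± 0.18 for brother minus isolated and -0.74 ± 0.18 for brother minus unrelated (SE).

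**Figure D3:**
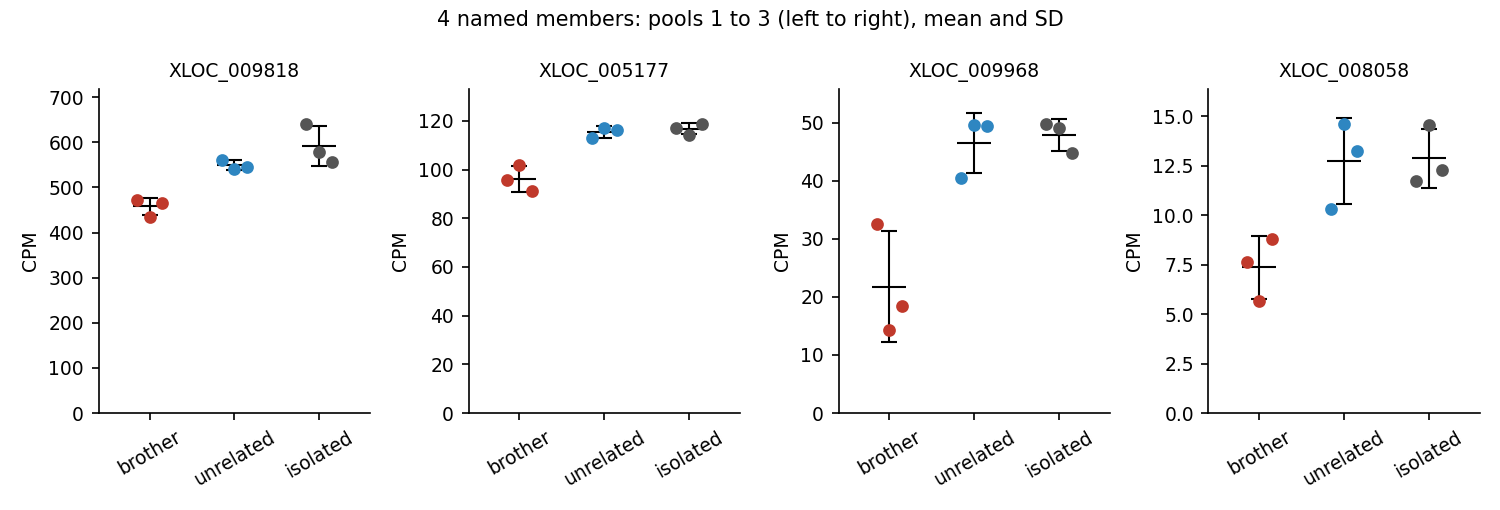
CPM (vertical axes, from 0) of the 4 named members in brother, unrelated and isolated pools, with pools 1 to 3 as points from left to right and the mean ± SD of 3 pools as a bar. Brother pool 1 is far above brother pools 2 and 3 at XLOC_009968 (32.5 against 14.3 and 18.5 CPM), while at XLOC_009818 the 3 brother pools lie between 435 and 472 CPM.

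The other members with a brother mean under 0.7 of the isolated mean were 3, at ranks 3, 4 and 5 of the ratio. The member at rank 3 stood at 7.23, 9.39 and 9.80 CPM in brother pools, at 13.5, 17.6 and 11.3 CPM in unrelated pools and at 17.5, 12.5 and 14.7 CPM in isolated pools. The member at rank 4 stood at 4.81, 4.22 and 4.59 CPM in brother pools, at 6.97, 9.54 and 7.72 CPM in unrelated pools and at 7.41, 8.58 and 6.83 CPM in isolated pools. This last had the widest gap of all members, with a lowest other pool 1.42 times the highest brother pool. The member at rank 5 stood at 11.1, 14.4 and 13.3 CPM in brother pools, at 16.4, 22.4 and 21.8 CPM in unrelated pools and at 20.3, 21.0 and 17.3 CPM in isolated pools. At ranks 3 to 5 the brother pools lie below all other pools while the unrelated and isolated pools overlap.

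Most members cleared the margin by little. The lowest other pool was less than 1.2 times the highest brother pool at 40 members and at least 1.2 times at 5, with a median of 1.13 times. The gap was compared with counting error alone, which leaves out the spread between pools. The exact 95% Poisson interval of the highest brother pool overlapped that of the lowest other pool at 14 members, of at most 21.0 CPM in isolated pools. The intervals lay apart at the other 31 members. The rule itself sets these pools apart by at least 1.1 times, so the counts of members carry no test. The least-read member had 247 counts in its least-read pool.

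No one brother pool was the lowest throughout. On pool totals, 11 members were lowest in brother pool 1, 13 in brother pool 2 and 21 in brother pool 3. On TMM-scaled totals 34 were lowest in brother pool 1, 2 in brother pool 2 and 9 in brother pool 3, so the order turns with the scaling. The ratio of the highest to the lowest brother pool was under 1.1 at 17 members, 1.1 to 1.2 at 17 and above 1.2 at 11. The median coefficient of variation of the members was 5.63% over brother pools, 3.94% over unrelated pools and 5.23% over isolated pools. Over all loci of at least 5 CPM it was 11.7%, 4.94% and 6.02% in the same groups. A rule that asks for separate groups favours loci of low spread.

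The name "only after brother courtship" describes the rule more closely than the data. At 36 of 45 members (80.0%) the unrelated mean was below the isolated mean, against 49.4% of the 4828 loci of the window. On TMM-scaled totals it was 38 members. No share over the window is given on that scaling, so nothing is read from the change. All 3 unrelated pools were below all 3 isolated pools at 10 members (22.2%), against 6.77% of the loci of the window, and at no member were all 3 above. The median ratio of unrelated to isolated mean was 0.950 over the members and 1.00 over the window. At all 45 members the unrelated mean was nearer to the isolated than to the brother mean. Both ratios share the isolated pools, and the rule used both, so the lean is a description. Of the 6 other pools, the one nearest to the brother pools was unrelated pool 1 at 18 members, unrelated pool 3 at 11, unrelated pool 2 at 6 and an isolated pool at 10.

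The members were then looked up in edgeR's quasi-likelihood test on all 9 pools, with p-values adjusted over all 15486 loci. All 45 members passed its filter on low counts. Brother minus isolated, 7 of 45 members were called lower at an adjusted p under 0.05, beside 1.65% of all loci. At an unadjusted p under 0.05, 42 members were lower in edgeR, beside 11.2% of all loci. The rule used that contrast, so nothing is read from the shares. The 7 had 7.60 to 53.4 CPM in isolated pools and brother means of 0.454 to 0.754 of the isolated mean, and XLOC_009968 was the one named locus among them. DESeq2 called 36 of 45 members lower, beside 5.27% of all loci, and its calls included the 7. The edgeR count of members rested on single pools. It was 25 without brother pool 1, beside 8.8% of all loci in that fit, and 21 without brother pool 2, beside 3.32%. It was 1 without isolated pool 2, beside 0.812% of all loci. It was 0 without brother pool 3, beside 0.00638%, and 0 without unrelated pool 1, 2 or 3, beside 0.99%, 0.402% and 0.23%. It was also 0 without isolated pool 1 or 3, beside 0.0319% each time. The share of all loci called thus moved with the pools as well. It was 0, beside 0.381% of all loci, when the 6 pools of the 2 groups were fitted alone.

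Brother minus unrelated, edgeR called 0 of 45 members lower, beside 0.187% of all loci. At an unadjusted p under 0.05, 34 members were lower in edgeR, beside 3.53% of all loci, and DESeq2 called 8 at an adjusted p under 0.05, beside 0.833% of all loci. Without brother pool 1, edgeR called 5, beside 2.15% of all loci. Unrelated minus isolated, edgeR called 0 of 45 members in either direction, beside 0% of all loci. At an unadjusted p under 0.05 it had 0 members, beside 10.8% of all loci, and DESeq2 called 0 of 45, beside 4.56% of the loci it tested. The window of the rule favours such a count.

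The 2 technical replicates of a pool were also read apart. They are parts of the sums that the rule used and share the pool of heads, so they show evenness between sequencing runs only. The 3 brother values were below all 6 others at 41 members in the first technical replicates and at 39 in the second, beside 7.57% and 6.05% of all loci of at least 5 CPM. They were below in both at 38 members, beside 3.53%. The brother mean was below both other means at all 45 members in each run. The whole rule with its margin was met by 19 members in each run and by 9 in both. XLOC_009968 and XLOC_008058 were among the 9, and so was XLOC_009818.

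Because the rule asks for 3 low brother pools, each brother pool was left out of it in turn and the loci so chosen were read in the pool left out, a comparison added after seeing the data. The pool left out took no part in the choice, though the unrelated and isolated pools did. Their part favours low ratios in the pool left out, so the values are a description and no independent test. Without brother pool 1, 525 loci met the rule. In brother pool 1 these had a median of 1.06 times the isolated mean, against 1.00 times over the 4828 loci of the window. Brother pool 1 was below all 6 other pools at 23.6% of the 525, against 31.6% over the window. The loci that were low in brother pools 2 and 3 were thus not lower than others in brother pool 1.

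The other brother pools gave other values. Without brother pool 2, 137 loci were chosen, and their median in brother pool 2 was 0.864 times the isolated mean, against 0.935 over the window. Brother pool 2 was below all 6 other pools at 70.1% of the 137, against 47.6% over the window. Without brother pool 3, 58 loci were chosen, and their median in brother pool 3 was 0.776 times the isolated mean, against 0.942 over the window. Brother pool 3 was below all 6 other pools at 57 of the 58 (98.3%), against 43.6% over the window. On TMM-scaled totals the medians of the loci chosen were 0.993, 0.924 and 0.813 in brother pools 1, 2 and 3 when each was left out, against 0.936, 1.00 and 0.987 over the window. All 45 members are among the loci chosen each time.

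**Figure D4:**
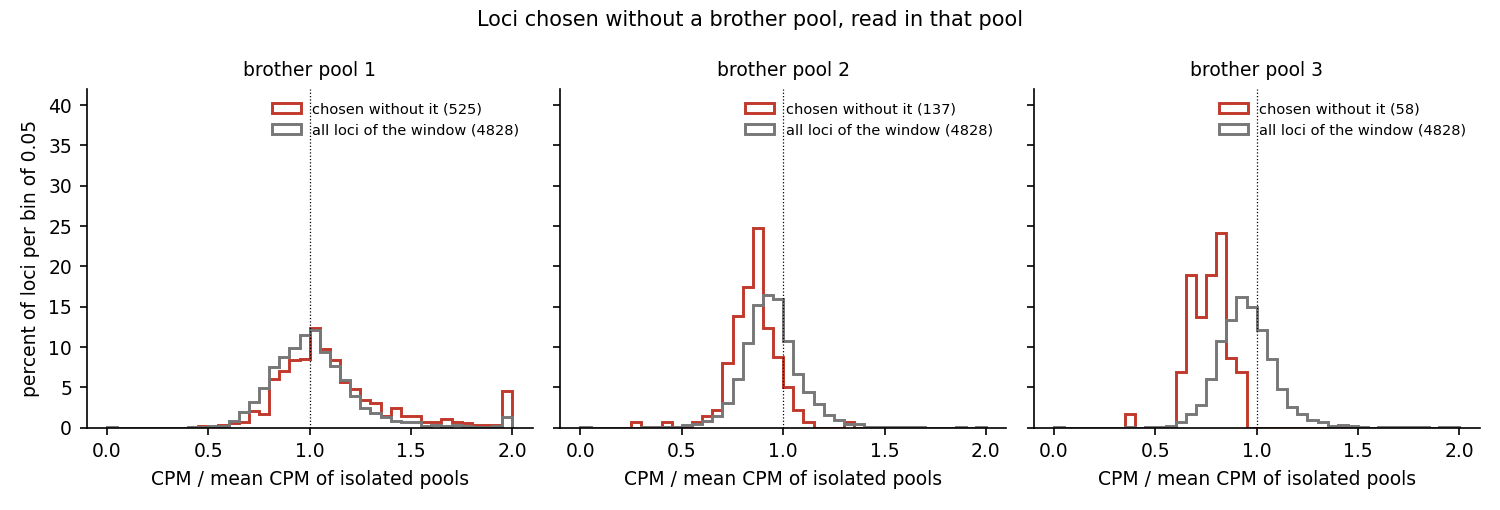
Percent of loci (vertical axis) by CPM in one brother pool divided by the mean CPM of isolated pools (horizontal axis, bins of 0.05, ratios above 2 in the last bin). Red shows the loci chosen without that pool and grey all 4828 loci of the window. In brother pool 1 the red line does not lie left of the grey one (medians 1.06 and 1.00), while in brother pool 3 it does (0.776 and 0.942).

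Among the 9 pools, leaving out brother pool 1 changed the number of loci the most. On pool totals the members' own level in that pool was near that in the other brother pools, which the rule favours. The level was taken as the log2 ratio of brother pool 1 to the mean of brother pools 2 and 3. Its median was 0.04 over the members, against 0.12 over all loci of at least 5 CPM. On TMM-scaled totals these medians were -0.14 and -0.06. On pool totals the ratio ran from -0.41 to 0.99 over the members, with XLOC_009968 at the upper end. The 5th and 95th percentiles over all loci of at least 5 CPM were -0.53 and 1.14. The number of loci that met the rule was 117 without unrelated pool 1 and 74 without unrelated pool 3, and it stayed between 43 and 58 without brother pool 3, unrelated pool 2 or any one isolated pool.

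The number also moved with the scaling. On TMM-scaled totals 21 loci met the rule, 14 of them members, and on totals scaled by edgeR's RLE method 15 met it, 10 of them members. On TMM-scaled totals all 45 members had every brother pool below every other pool, and 15 cleared the margin of 1.1. The rule's margin nearly fixes the first of these counts, since the TMM factors differ little between pools (0.932 to 1.07). Nothing is read from it. The 10 members kept under RLE were also kept under TMM. Of these, 4 also met the rule in each technical replicate alone, XLOC_009968 among them. With the margin turned round and no bound on size, 9 loci were raised after brother courtship only, and 13 and 15 on TMM and RLE totals. With the courted groups exchanged, 3 loci were lowered after unrelated courtship only, and 1 on either scaling. After brother courtship, 45 loci were lowered and 9 raised on pool totals. The counts were 21 and 13 on TMM totals and 15 and 15 on RLE totals. The difference between these counts, which have unlike bounds, thus changed with the scaling.

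**Figure D5:**
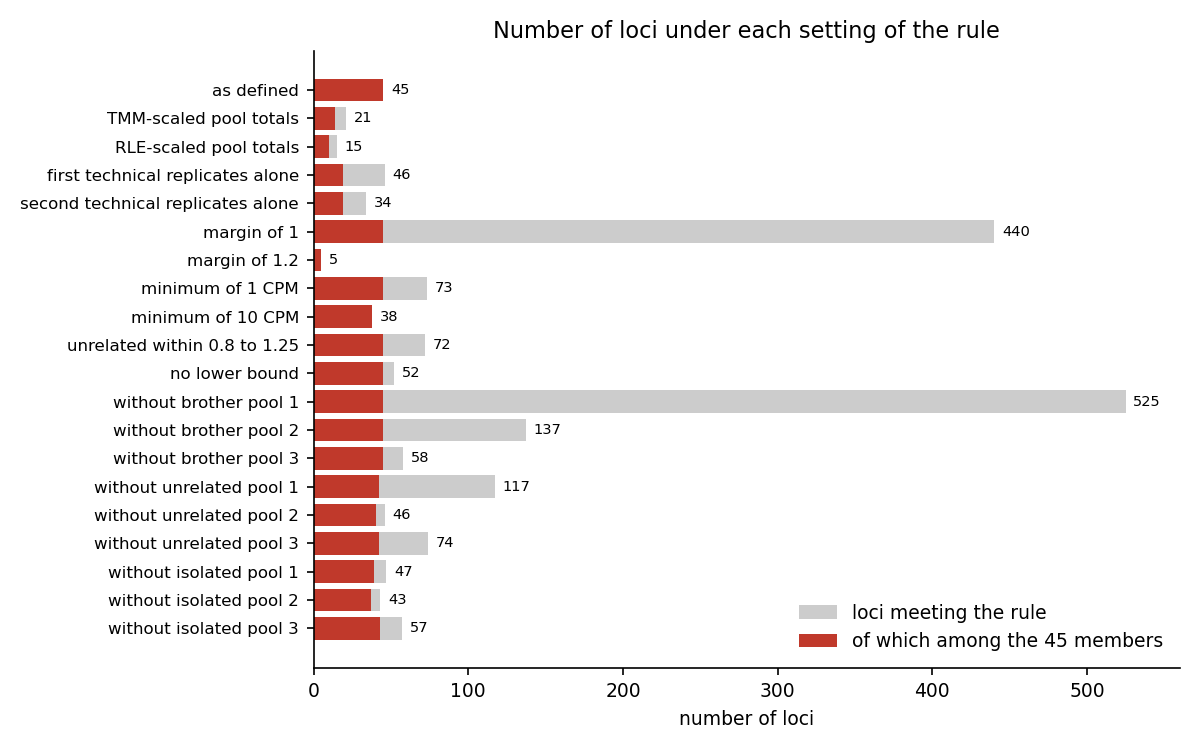
Number of loci that met the rule (horizontal axis, grey) under each setting (rows), and how many of them are among the 45 members (red). The count is 440 with a margin of 1, 5 with a margin of 1.2, and 525 without brother pool 1.

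The members' profiles over the 9 pools followed one another closely, which the rule brings about. Pearson's r of log2(CPM + 1) between a member and the mean of the other members ran from 0.828 to 0.987, with a median of 0.918, over 9 pools that share their totals. Among the 8223 other loci of at least 5 CPM, 140 had an r above 0.9 with the mean of the members. Of the 10 most alike, 5 were under 0.25 of the isolated mean in brother pools, 4 of the 10 missed the margin of 1.1 and 4 lay outside the window. The most alike locus, at r = 0.996, had a brother mean of 0.000731 times its isolated mean of 161 CPM. The third most alike, at r = 0.979, had a brother mean of 0.907 times its isolated mean of 93.4 CPM. Such a likeness takes no account of the size of the difference.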

How the data were processed

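RNA of pooled female heads was enriched for polyadenylated RNA, built into strand-marked TruSeq libraries and sequenced from both ends with Illumina chemistry, per the labels' protocols. The deposited file is a single table of unnormalised counts per XLOC locus, with 1 column for each of 18 libraries. The submitters' processing notes name Trimmomatic 0.36, TopHat, HTSeq and Cufflinks. Not given in the sources used here are the genome build and the way strand, overlapping loci and near-identical copies were counted, and reads of such loci may be split between them. Columns were matched to samples by condition, replicate number and the letter b of the second technical replicate, and the columns with neither of the courtship names were taken as isolated.

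Libraries held 22079293 to 67940613 counts. Technical replicates were summed to 9 pools, and CPM is the count over the pool total. edgeR 4.0.16 in R 4.3.3 was run on all 9 pools with a term per group, filterByExpr, TMM and Benjamini-Hochberg adjustment over all loci, with DESeq2 1.42.0 as an alternative. The SE is the log2 difference over the square root of F. The fit and the rule were tested on simulated data. Intervals cover counting error only and treat reads as independent. PCR reads that carry no molecular identifiers are not independent, so the intervals may be too narrow. The members and the choices of analysis were made with earlier results of these data known. The loci named are the 2 members with the highest isolated CPM and the 2 with the lowest ratio of brother to isolated mean.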

Additional observations from a re-analysis of the deposited data

How the results depend on the processing

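The number of loci meeting the rule, 45 as defined, was 21 on TMM totals, 15 on RLE totals, 440 with a margin of 1, 5 with a margin of 1.2, 73 with a minimum of 1 CPM and 72 with a wider window that starts at 0.8. Leaving out single pools gave 43 to 525. A minimum of 10 CPM, no lower bound and either technical replicate alone kept it within 1.5 times, although each technical replicate alone shared 19 loci with the 45. Members called lower by edgeR, brother minus isolated (7), were 36 with DESeq2, 18 on unscaled totals (beside 2.31% of all loci), 0 with only the 2 groups fitted and 0 to 25 without single pools. Brother minus unrelated (0) gave 8 with DESeq2 and 0 to 5 without single pools. The causes of these moves were not tested. The members lowest in brother pool 1 were 11, and 34 on TMM totals. The median log2 difference of the members, brother minus isolated, was -0.38. Its sign held under every scaling and every pool left out, which the choice of members largely fixes. The median log2 difference moved by less than 0.092, the SD of the members' median log2 ratio over brother pools on TMM-scaled totals. The median ratios to the isolated mean there were 0.7322, 0.8315 and 0.7755 in brother pools 1, 2 and 3. On pool totals they lay closer together, at 0.7836, 0.7759 and 0.7412, so that spread is smaller.

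In the fit with a replicate block, 0 members were called in any contrast, and over all loci 0.213% were called lower for brother minus isolated, 0.0194% for brother minus unrelated and none for unrelated minus isolated. Pools of one number did not deviate together (r of -0.31 to 0.19 between their departures from the group means), and 0 pools were closest to their own number in both other groups. The numbers were therefore not used as pairs. The 4 named loci kept their direction in both contrasts under every alternative, which the choice of members largely fixes. The edgeR call of XLOC_009968 for brother minus isolated was lost under 10 of the alternatives. Depth limits the members under about 21.0 CPM, where the margin of 1.1 can lie within counting error.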
